A study of Homo sapiens with 8 samples.

Results

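Cohesin, condensin and the SMC5/6 complex are ring-shaped ATPase machines that fold and hold chromosomes, and 10 of their genes were followed here in PANC-1 cells after silencing of BARD1. The genes were taken by name from the protein-coding entries of the deposited tables: SMC1A, SMC3, RAD21, STAG1, STAG2 and the loader NIPBL for cohesin, SMC2 and SMC4 for condensin, and SMC5 and SMC6 for the SMC5/6 complex. All 10 were found among 58735 genes, and all 10 passed the low-count filter that left 15287 genes to test. Their counts ran from 654 to 9247 reads per library.

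PANC-1 is an established human pancreatic ductal adenocarcinoma line. Control libraries (siSCR, n = 4) came from cells of genotype WT given SCR siRNA, and knockdown libraries (siBARD1, n = 4) from cells labelled BARD1 knockdown and given BARD1 siRNA, all of the same line and harvested 48 h after transfection. Replicates carry the numbers 1, 3, 4 and 5 in both groups. The silencing is transient, no source used here gives the siRNA sequences, and no label says whether replicates were separate cultures. A p-value here therefore reflects the spread among these libraries, which may be technical. The design asks what follows in RNA when BARD1, the ubiquitin ligase partner of BRCA1 in homologous recombination repair, is silenced.

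In cohesin, SMC1A and SMC3 form a V-shaped pair closed by RAD21, and a STAG subunit, either STAG1 or STAG2, binds RAD21. NIPBL, with its partner MAU2, loads the ring onto DNA and drives loop extrusion, while cohesin's grip on sister chromatids also supports repair by recombination. Condensin, built on SMC2 and SMC4, compacts chromosomes for mitosis, and SMC5/6, which carries a SUMO ligase, acts at stalled forks and during recombination.

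BARD1 itself checked the labels. In CPM (reads of a gene relative to the library's TMM-adjusted total), always given in the order of replicates 1, 3, 4 and 5, siSCR held 17.3, 22.2, 17.8 and 20.8 and siBARD1 held 3.27, 2.91, 3.34 and 2.47, a log2 fold change of -2.69 (SE 0.12, edgeR adjusted p = 7.41e-11). Totals were 17816547 to 28590710 counts per library. On the second principal component siSCR replicate 1 lay apart, at 20.85, with the other libraries between -9.46 and 5.25. All 8 markers of PANC-1 and ductal epithelium averaged at least 1 CPM, but their summed level was 7373 to 9348 CPM in siSCR and 4635 to 6014 CPM in siBARD1, led by the keratin KRT8 and by VIM, or vimentin. Leukocyte, endothelial and acinar marker sums stayed at or below 0.754 CPM in every library. Of 5 fibroblast markers DCN and LUM had no count, and the list's sum of 83.1 to 126.0 CPM in siSCR and 78.4 to 87.2 CPM in siBARD1 was nearly all COL1A1. The part of these marker shifts in the results below was not tested.

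The responses of the 10 genes were small and mixed in direction. SMC1A, SMC3 and SMC4 fell, STAG2 and NIPBL rose, and RAD21, STAG1, SMC2, SMC5 and SMC6 did not pass an edgeR adjusted p of 0.05. The 5 called genes of 10 stand against a background of 38.9% of all tested genes, with 20.0% lower and 18.9% higher, so the share called was near that of the transcriptome. The members' median log2 fold change was -0.04, against 0.00 over all genes, and the median size of their changes was 0.14, against 0.21 over all genes. In CPM the groups did not overlap for 4 members, SMC1A, STAG1, STAG2 and NIPBL, with 36.1% of all genes as background. With scaling by total count only, 1 member was lower and 3 higher, since SMC3 and SMC4 no longer passed and SMC6 did. Under that scaling 59.3% of all called genes were higher, against 48.6% with TMM scaling.

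**Figure D1:**
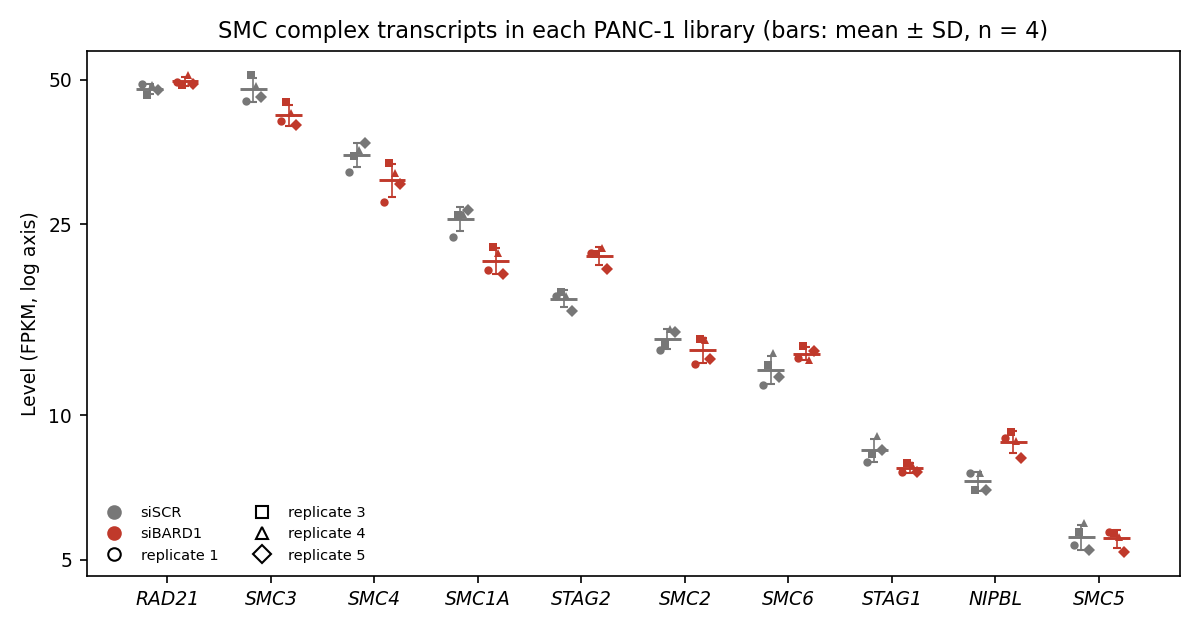
FPKM (a level per gene length, log axis) of each of the 10 genes in each library, with grey for siSCR, red for siBARD1, 1 symbol per replicate number, and bars for mean ± SD (n = 4). The libraries of the 2 groups separate for SMC1A, STAG2 and NIPBL, separate narrowly for STAG1 (7.98 FPKM as the lowest siSCR and 7.94 as the highest siBARD1 value) and SMC3 (45.1 and 45.0), and overlap for the other 5 members.

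Levels can be compared between genes only per length, as the authors' FPKM values. The length used for each member equals all its annotated exonic bases, 4275 for SMC3, 6192 for RAD21 and 8457 for SMC4. It is not the length of the transcripts expressed. The order of genes and the levels of 1 gene relative to another therefore depend on the annotation, which the SD between libraries does not cover. RAD21 (47.9 ± 1.11 FPKM, SD, n = 4) and SMC3 (47.8 ± 2.79) were the most abundant members in siSCR and did not differ beyond their spread. SMC4 followed at 34.9 ± 2.06 and SMC1A at 25.7 ± 1.46, so that the transcript of SMC1A stood at 0.538 ± 0.032 of that of its partner SMC3. STAG2 stood at 17.5 ± 0.70, SMC2 at 14.4 ± 0.68 and SMC6 at 12.4 ± 0.82. STAG1 (8.45 ± 0.45), NIPBL (7.28 ± 0.33) and SMC5 (5.56 ± 0.33) were the lowest. In siBARD1 the order changed at 2 places. STAG2, at 21.5 ± 0.91, and SMC1A, at 21.0 ± 1.32, no longer differed beyond their spread, and NIPBL, at 8.80 ± 0.46, stood above STAG1, at 7.76 ± 0.17.

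The 7-base sequence CTACCAG was chosen from earlier results of these same data, for its frequency in strongly reduced transcripts. It lay in an annotated coding transcript of 80.6% of the 144 protein-coding genes reduced 2-fold or more and of 26.4% of the other 12578, which is no independent evidence. Among the members 2 of 10 carried it, SMC3 and STAG1, against 27.0% of all 12722 genes searched. The sites are shown with those of BARD1, in the direction of the transcript with CTACCAG in capitals (GENCODE 29, GRCh38).
BARD1 (chr2:214752474-214752502, minus strand, coding or 3′ UTR by transcript): cgctattgctgCTACCAGagaagaatgaa
BARD1 (chr2:214727340-214727368, minus strand, 3′ UTR): cagtttgataaCTACCAGaatagaatatc
SMC3 (chr10:110599689-110599717, plus strand, coding): tgctatggagtCTACCAGagagtcattga
STAG1 (chr3:136337416-136337444, minus strand, 3′ UTR in 3 of 6 coding transcripts): tttagcaacttCTACCAGcaaataaagta
SMC1A and SMC4, which fell, carried no copy in any annotated coding transcript, nor did STAG2 and NIPBL, which rose. Of the partner genes searched, which are described further on, NCAPH2, NSMCE2 and SLF2 carried it. Of the cell cycle markers named there, MCM6 and AURKA carried it, and MCM3, CDC20, HMMR and CENPF did not. A match describes the letters only.

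Promoter windows, 250 bases before to 50 after a start site, were held by RefSeq (GRCh38.p14) for 9 members, all but RAD21, in 14 windows. 10 motifs were searched on both strands. TTTGGCGC, an E2F-type sequence, was in 1 window each of STAG2 and NIPBL, the 2 members that rose, and in 0.652% of all 35116 windows. TTTGAA, the core of the cell cycle homology region, was in 1 window each of SMC2, SMC3 and SMC4 and in 15.2% of all windows. These stretches are shown to set the risers beside the condensin and SMC3 promoters, in the direction of the gene, with the motif in capitals. TTTGAA reads TTCAAA there because it lies on the opposite strand.
NIPBL (chr5:36876709-36876737, plus strand): ggttgttagtgTTTGGCGCcggcggaggg
STAG2 (chrX:123961996-123962024, plus strand): tgttggggggtTTTGGCGCcacttttgtt
SMC4 (chr3:160399564-160399592, plus strand): ccgcactttttTTCAAAttagtggatccc
SMC2 (chr9:104094295-104094323, plus strand): tcgcgccgaaaTTCAAAggaataaatagt
SMC3 (chr10:110567533-110567561, plus strand): agaattctagaTTCAAAagaaatccacca
CCAAT was in windows of STAG1 and STAG2 (34.6% of all windows), TTCCCGCC, also E2F-type, in STAG1 (3.16%), CCGGAAGT, an ETS-type sequence, in NIPBL and SMC6 (4.14%), and GCCATNTTG, a YY1-type sequence, in SMC3 (2.92%). TTTCGAA (0.632%), TGACGTCA (1.85%), a longer YY1-type sequence (0.849%) and CCACNAGGG (1.46%) were in none of the members' windows. No window of SMC1A, which fell, held any of the 10 motifs, and SMC2, which had TTTGAA, was not called. The motifs were chosen with the responses known, and with this many searched the shared TTTGGCGC is a description of 2 promoters.

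The ring pair of cohesin fell. SMC1A (ENSG00000072501; chromosome X, 53374149 to 53422728, minus strand, GRCh38) stood at 247.2, 275.2, 276.5 and 282.8 CPM in siSCR and at 212.8, 236.9, 229.0 and 208.4 CPM in siBARD1. Every siBARD1 library lay below every siSCR library, a fall of 17.9% (log2 fold change -0.29, SE 0.05, edgeR adjusted p = 0.000577). SMC3 (ENSG00000108055; chromosome 10, 110567691 to 110604636, plus strand) stood at 193.6, 219.7, 209.3 and 198.1 CPM in siSCR and at 177.0, 193.6, 182.9 and 173.7 CPM in siBARD1. On this scale its groups met at siSCR replicate 1 and siBARD1 replicate 3, and the fall of 11.4% (-0.17, SE 0.05) had an edgeR adjusted p of 0.0139, or 0.0515 with scaling by total count only.

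RAD21, the kleisin that closes the ring and the subunit cut by separase at anaphase, did not fall with them. RAD21 (ENSG00000164754; chromosome 8, 116845935 to 116874866, minus strand) stood at 304.0, 288.6, 303.3 and 297.5 CPM in siSCR and at 309.7, 303.9, 318.0 and 307.0 CPM in siBARD1. The groups overlapped, and the log2 fold change of 0.05 (95% confidence interval -0.04 to 0.14, edgeR adjusted p = 0.347) has its lower bound above the upper bound of SMC1A, -0.17. UTP23 and RAD21-AS1 on the opposite strand share 14.2% of its exonic bases.

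The STAG subunits, which define alternative forms of cohesin, differed in their response. STAG2 (ENSG00000101972; chromosome X, 123960212 to 124422664, plus strand) stood at 145.5, 148.5, 146.0 and 136.1 CPM in siSCR and at 180.4, 178.5, 183.4 and 167.2 CPM in siBARD1. All siBARD1 libraries lay above all siSCR libraries, a rise of 23.2% (log2 fold change 0.30, SE 0.05, edgeR adjusted p = 9.8e-05), which was the smallest p among the members. STAG1 (ENSG00000118007; chromosome 3, 136336233 to 136752403, minus strand) stood at 62.9, 65.3, 71.6 and 66.8 CPM in siSCR and at 60.4, 62.7, 62.1 and 60.3 CPM in siBARD1. All 4 siBARD1 values were below those of siSCR, though siSCR replicate 1 and siBARD1 replicate 3 lay close, and the log2 fold change of -0.12 (SE 0.05) did not pass (edgeR adjusted p = 0.0905). Without siSCR replicate 1, the library that lay apart, it was -0.15 with an adjusted p of 0.0382. Of 19 alternatives, STAG1 passed only in this 1. With upper-quartile scaling its log2 fold change was -0.08 (edgeR adjusted p = 0.253) and with total-count scaling -0.07 (0.319). Exons of PCCB on the opposite strand cover 21.2% of the exonic bases of STAG1, and the labels do not settle whether the libraries were directional, so reads of the pair cannot be told apart. PCCB had a log2 fold change of 0.03 (edgeR adjusted p = 0.700).

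NIPBL, the cohesin loader, rose. NIPBL (ENSG00000164190; chromosome 5, 36876759 to 37066413, plus strand) stood at 95.3, 87.8, 95.3 and 88.4 CPM in siSCR and at 113.4, 116.6, 111.1 and 103.3 CPM in siBARD1. No libraries overlapped, and the rise was 21.1% (log2 fold change 0.28, SE 0.05, edgeR adjusted p = 0.0005). The falls of SMC1A and the rises of STAG2 and NIPBL passed in all 19 alternative settings.

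Condensin's SMC2 and SMC4 lay lower on average, and SMC4 alone passed. SMC4 (ENSG00000113810; chromosome 3, 160399274 to 160434962, plus strand) stood at 272.7, 294.7, 304.3 and 315.5 CPM in siSCR and at 238.0, 285.9, 271.3 and 259.0 CPM in siBARD1. Its groups overlapped, and the fall of 11.2% (log2 fold change -0.17, SE 0.06) had an edgeR adjusted p of 0.0305. The call was lost without siSCR replicate 4 (adjusted p = 0.0796), siSCR replicate 5 (0.0932), siBARD1 replicate 1 (0.104) or siBARD1 replicate 5 (0.0735), and with upper-quartile scaling (0.0908), total-count scaling (0.113) or limma on FPKM (0.0551 and 0.0538). Exons of IFT80 and TRIM59 on the opposite strand cover 25.6% of the exonic bases of SMC4, and these genes had log2 fold changes of 0.17 and -0.01. SMC2 (ENSG00000136824; chromosome 9, 104094260 to 104141417, plus strand) stood at 88.9, 91.1, 98.2 and 97.4 CPM in siSCR and at 83.5, 93.7, 93.2 and 85.6 CPM in siBARD1. Its groups overlapped, with a log2 fold change of -0.08 (95% confidence interval -0.19 to 0.04, edgeR adjusted p = 0.292).

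Neither SMC of the SMC5/6 complex passed. SMC5 (ENSG00000198887; chromosome 9, 70258962 to 70354888, plus strand) stood at 35.8, 37.9, 39.8 and 35.0 CPM in siSCR and at 38.3, 37.9, 37.0 and 34.8 CPM in siBARD1. The 95% confidence interval of its log2 fold change, -0.14 to 0.13, was centred near 0 (edgeR adjusted p = 0.973), so a change of the size seen for STAG2 lay outside the interval. SMC6 (ENSG00000163029; chromosome 2, 17663812 to 17800242, minus strand) stood at 114.0, 125.3, 132.9 and 119.0 CPM in siSCR and at 130.5, 137.9, 128.5 and 135.4 CPM in siBARD1. The groups overlapped through siSCR replicate 4, and the log2 fold change was 0.12 (95% confidence interval 0.01 to 0.23, edgeR adjusted p = 0.0907). Without siSCR replicate 4 it was 0.16 with an adjusted p of 0.0358. Of 19 alternatives, SMC6 passed in 3, the others being upper-quartile (edgeR adjusted p = 0.0286) and total-count scaling (0.0172). Over all alternatives its adjusted p reached 0.2185.

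**Figure D2:**
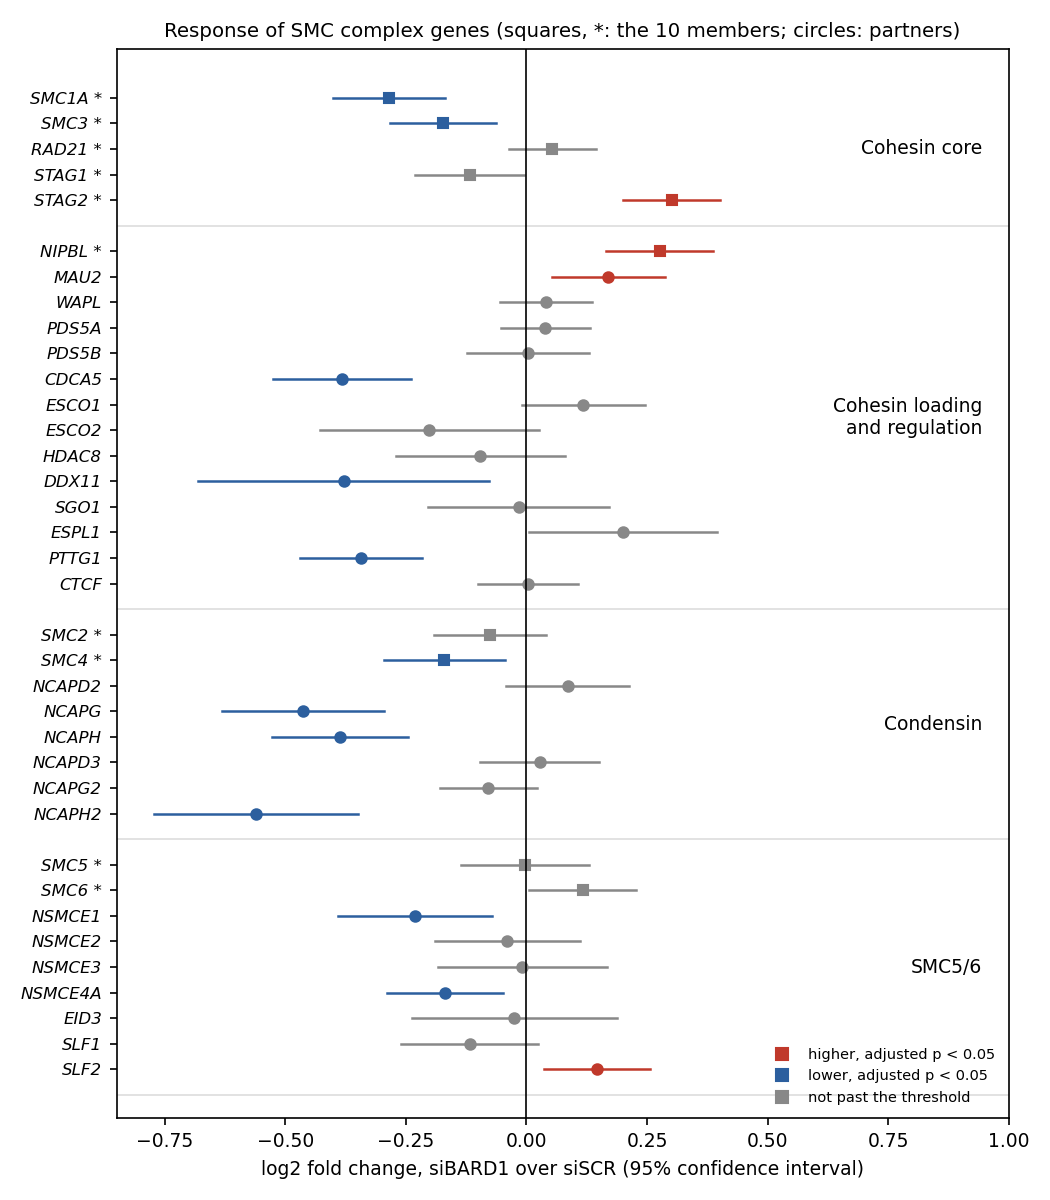
Log2 fold change of siBARD1 over siSCR with its 95% confidence interval for the 10 members (squares) and for their partner genes (circles), by complex, with red for higher, blue for lower and grey for genes that did not pass an edgeR adjusted p of 0.05. The cohesin subunits of meiosis, STAG3, REC8, RAD21L1 and SMC1B, are not drawn. Within cohesin SMC1A and SMC3 lie to the left of 0 and STAG2 and NIPBL to the right. The steepest falls are those of the condensin partners NCAPH2, NCAPG and NCAPH.

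Whether subunits of a pair responded differently was tested on the ratio of their FPKM values within each library, which does not depend on scaling between libraries. The STAG1 to STAG2 ratio was 0.451, 0.459, 0.512 and 0.513 in the siSCR libraries and 0.349, 0.367, 0.353 and 0.377 in those of siBARD1. The groups were well apart, with a log2 difference of -0.42 (exact two-sided permutation p = 0.0286, the smallest that 4 against 4 libraries can give; 0.0286 adjusted over 4 ratios). The ratio fell to 0.749 of its control value.

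The other ratios moved less, and some separations were slight. SMC1A to SMC3 went from 0.538 ± 0.032 to 0.497 ± 0.0098 (SD, n = 4 each; log2 difference -0.11), and the highest siBARD1 and the lowest siSCR ratio were both 0.511. Without siSCR replicate 5 the difference was -0.074. On log2(FPKM + 1), with all 8 libraries, it was -0.10 and did not pass (exact permutation p adjusted to 0.0571). SMC2 to SMC4 went from 0.414 ± 0.012 to 0.442 ± 0.014 (log2 difference 0.09), with 0.426 as the highest siSCR and 0.429 as the lowest siBARD1 ratio. SMC5 to SMC6 went from 0.448 ± 0.012 to 0.412 ± 0.024 (-0.12), with 0.435 and 0.434 at the nearest pair. For each of these the exact permutation p was 0.0286, raw and adjusted, and it reflects that no libraries overlapped, however slightly.

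**Figure D3:**
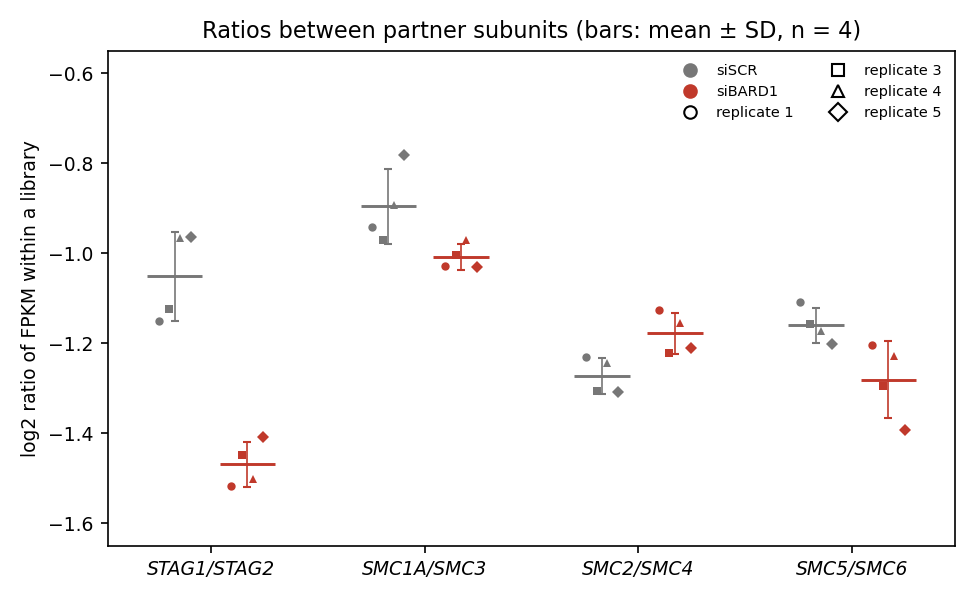
Log2 ratio of FPKM between partner subunits within each library, with grey for siSCR, red for siBARD1, 1 symbol per replicate number, and bars for mean ± SD (n = 4). The STAG1 to STAG2 ratio is lower in siBARD1 by 0.42, and the other 3 ratios differ by 0.09 to 0.12.

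Within groups, pairs of members ranged from closely to not at all alike. Over the 8 libraries, the Pearson correlation of deviations from the group means of log2(CPM + 1) was 0.92 between SMC2 and SMC4, 0.88 between SMC1A and SMC4, and 0.72 between SMC1A and SMC3. It was 0.87 between SMC1A and SMC2. The remaining SMC pairs were lower, among them 0.66 between SMC3 and SMC5, 0.615 between SMC3 and SMC6 and 0.61 between SMC5 and SMC6. Lower still were 0.45 between SMC2 and SMC3, 0.39 between SMC2 and SMC6, 0.23 between SMC2 and SMC5, and 0.04 between SMC4 and SMC5. The correlation was 0.57 between STAG2 and NIPBL, 0.09 between STAG1 and STAG2, and -0.52 between RAD21 and SMC3. The median over all 45 pairs was 0.39. These values share the libraries and their scaling and are given as description.

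By the same measure without removing group means, the protein-coding genes at 5 CPM or more whose pattern over the 8 libraries was most like that of SMC3 were RRP8 (0.988), EZR (0.986) and ZFP62 (0.983). CIP2A (0.996), AGK (0.987) and NFKB1 (0.977) were most like SMC4, and CA13 (0.927), CDK12 (0.906) and SMAD4 (0.901) most like SMC5. Each trio is the top of 10425 genes searched, and all values rest on the same libraries and scaling.

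Beside the members, 30 partner genes of the same complexes were followed, of which 29 passed the low-count filter. 8 fell, 2 rose and 19 did not pass, or 34.5% called against 38.9% of all genes. Total-count or upper-quartile scaling left 5 that fell, as did leaving out siSCR replicate 3 or siBARD1 replicate 3. With siSCR replicate 3 or siBARD1 replicate 4 left out 0 rose, and with siSCR replicate 1 or siBARD1 replicate 3 left out 1 rose.

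Of 13 regulators of cohesin loading, release and cohesion, 3 fell and 1 rose, or 30.8% called against 38.9% of all tested genes. MAU2, the partner of NIPBL in the loader, also rose, from a mean of 40.4 ± 1.02 CPM (SD, n = 4) to 45.5 ± 1.76 CPM (log2 fold change 0.17, SE 0.06, edgeR adjusted p = 0.0231). It did not pass without siSCR replicate 3 or siBARD1 replicates 1 or 4 (up to 0.0704), nor in limma on log2(FPKM + 0.1) (0.05055). CDCA5, or sororin, which keeps cohesin on replicated DNA, fell from 142.5 ± 14.6 to 109.3 ± 6.24 CPM (-0.38, SE 0.07, adjusted p = 0.000329). The helicase DDX11 had -0.38 (SE 0.13, adjusted p = 0.0499) and lost its call without any 1 library other than siSCR replicate 1. The call was also lost with upper-quartile (0.0810) and total-count scaling (0.0874), on protein-coding genes only (0.0503) and in limma-voom (0.0735). The tables also list DDX12P, annotated as a pseudogene of this family, with -0.20 (adjusted p = 0.522), and whether reads were split between them was not tested, so the DDX11 value is uncertain. PTTG1, or securin, the inhibitor of separase, fell from 117.7 ± 9.06 to 92.6 ± 5.0 CPM (-0.34, SE 0.06, adjusted p = 0.000226) and was named after its value was seen. The release factor WAPL and its partners PDS5A and PDS5B, likewise outside the rule for names, had 0.04, 0.04 and 0.00.

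In condensin 3 of 6 non-SMC subunits fell in edgeR and 0 rose, or 50% called against 38.9% of all tested genes. The counts were the same at an unadjusted p under 0.05, in DESeq2, in limma-voom and in limma on log2(FPKM + 1). NCAPG and NCAPH, the HEAT-repeat and kleisin subunits of condensin I, had -0.46 (SE 0.08, adjusted p = 0.000231) and -0.39 (SE 0.07, adjusted p = 0.000227), with no overlap between groups. LCORL on the opposite strand covers 33.1% of the exonic bases of NCAPG and had 0.22 (adjusted p = 0.0371). NCAPH2, the kleisin of condensin II, fell from 43.5 ± 4.96 to 29.4 ± 3.96 CPM (-0.56, SE 0.10, adjusted p = 0.000425). NCAPD2 (0.09, SE 0.06), NCAPD3 (0.03, SE 0.06) and NCAPG2 (-0.08, SE 0.05) did not pass. Beside these stand the log2 fold changes of -0.08 for SMC2 and -0.17 for SMC4, and the differences between subunits were not tested.

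Of 7 SMC5/6 subunits and loaders, 2 fell and 1 rose, or 42.9% called against 38.9% of all tested genes. The ubiquitin ligase subunit NSMCE1 had -0.23 (SE 0.08, edgeR adjusted p = 0.0224), the kleisin NSMCE4A had -0.17 (SE 0.06, adjusted p = 0.0260), and SLF2, which recruits the complex to damaged DNA, had 0.15 (SE 0.05, adjusted p = 0.0347). Each of these calls was lost without some single library, for NSMCE1 siSCR replicate 3 and siBARD1 replicates 1 and 3, with adjusted p up to 0.0720. For NSMCE4A the libraries were siSCR replicates 3 and 4 and siBARD1 replicates 3 and 4, with adjusted p up to 0.0997. For SLF2 they were siSCR replicates 1, 3 and 5 and siBARD1 replicates 3 and 4, with adjusted p up to 0.105. The NSMCE1 and NSMCE4A calls were also lost with upper-quartile (edgeR adjusted p = 0.0503 and 0.0771) and total-count scaling (0.0607 and 0.103). The call of NSMCE4A was lost without a low-count filter too (0.0912), and that of SLF2 in limma on log2(FPKM + 1) and log2(FPKM + 0.1) (0.0628 and 0.0630). NSMCE2, the SUMO ligase, had -0.04, NSMCE3 -0.01, EID3 -0.03 and SLF1 -0.12, none past the threshold. The cohesin subunits of meiosis were low: STAG3, REC8 and RAD21L1 averaged 1.84 to 2.84 CPM, and SMC1B did not pass the filter. In edgeR 0 of 3 tested were called, beside 38.9% of all tested genes. The count was also 0 at an unadjusted p under 0.05, in DESeq2, in limma-voom and in limma on log2(FPKM + 1).

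Markers of the cell cycle also changed, and their association with the genes above was not tested. Of 20 G1/S and S phase markers, 19 fell and 0 rose in edgeR, or 95% called against 38.9% of all tested genes. At an unadjusted p under 0.05 the counts were 20 and 0. In DESeq2, limma-voom and limma on log2(FPKM + 1) they were 19 and 0. The median log2 fold change of these markers was -0.51, and MCM6 (-0.77) and MCM3 (-0.66) fell most. Of 20 G2/M markers, 10 fell and 3 rose, or 65% called, with a median of -0.17. AURKA (-0.51) and CDC20 (-0.42) fell most, and HMMR (0.42) and CENPF (0.26) rose most. In bulk RNA fewer cells in a phase and less RNA per cell cannot be told apart, and the part of these markers in the changes of cohesin and condensin genes was not tested.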

How the data were processed

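Polyadenylated RNA of 8 PANC-1 libraries (4 siSCR, 4 siBARD1) was sequenced. The authors deposited whole-number read counts per gene and FPKM values per gene; per the submitters' processing notes, fastp, HISAT2 (2.0.5) and featureCounts were used, with settings not given in the sources used here. The labels' protocols mention both a directional and a non-directional kit, without saying which was used. The processing notes name GRCh37 and hg19, but the deposited coordinates of all 58735 genes equal those of GENCODE 29 on GRCh38. Each deposited FPKM value equalled count over gene length and total, times 1 constant per library (0.970 to 1.03). Totals were 17816547 to 28590710 counts.

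Counts were tested with edgeR (4.0.16, R 4.3.3): filterByExpr, TMM factors, the quasi-likelihood test with robust dispersion for siBARD1 minus siSCR, and Benjamini-Hochberg adjustment over 15287 genes, threshold 0.05. SE is the log2 fold change over the square root of F. CPM uses TMM-scaled totals. Ratios were tested by exact permutation over 70 assignments. No library was a duplicate: within groups, pairs gave a chi-square of 4.25 to 17.6 per gene. The edgeR and permutation steps were tested on simulated data.

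The members, lists, motifs and tests were chosen with earlier results of these data known. The rule named BARD1, all members, every gene of lists of up to 7 genes, in longer lists the 2 largest changes each way that passed, and for SMC3, SMC4 and SMC5 the 3 most alike genes. Alternatives comprised 3 other scalings (RLE, upper-quartile, total count), 2 other filters (none, or 1 CPM in 4 libraries), a fit on protein-coding genes, DESeq2 (1.42.0) and limma (3.58.1; voom, log2(FPKM + 1) and log2(FPKM + 0.1)), a replicate block, and each library left out.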

Additional observations from a re-analysis of the deposited data

Results flagged for a closer look

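Among 82 groups of 4 libraries examined, 3 had a library far from the rest of its group, and chance gives about 1 in 20. No SMC, STAG, RAD21 or NIPBL gene was among them. DDX11 stood at 71.9 CPM in siBARD1 replicate 3, against 64.9 to 65.9 CPM in the other siBARD1 libraries (gap over range 0.853). MAU2 stood at 38.9 CPM in siSCR replicate 3, against 40.8 to 41.1 CPM in the other siSCR libraries (0.877). NCAPH stood at 71.8 CPM in siSCR replicate 1, against 80.4 to 82.0 CPM in the others (0.837).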

How the results depend on the processing

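Over 19 alternatives, 36 named genes gave 684 values, of which 637 stayed on their side of the threshold, 43 no longer passed, 4 passed only there and 0 were reversed. Members lower numbered 1 with total-count scaling, 2 with upper-quartile scaling and in limma on log2(FPKM + 1) and log2(FPKM + 0.1), and 2 to 4 without single libraries. Members higher numbered 3 with upper-quartile and total-count scaling and 2 to 3 without single libraries. Partner genes lower numbered 5 with upper-quartile and total-count scaling and 5 to 8 without single libraries; partner genes higher numbered 1 with log2(FPKM + 1), 0 with log2(FPKM + 0.1) and 0 to 2 without single libraries. Without single libraries no ratio could pass, since 3 against 4 libraries give no p below 0.0571; the log2 differences ranged from -0.45 to -0.39 for STAG1/STAG2, -0.14 to -0.074 for SMC1A/SMC3, 0.077 to 0.11 for SMC2/SMC4 and -0.15 to -0.083 for SMC5/SMC6. On log2(FPKM + 1) the SMC1A/SMC3 difference was -0.10 with an exact permutation p adjusted to 0.0571; the cause was not tested. Whether replicate numbers pair the libraries was not settled. Correlations of deviations were 0.139, 0.129, 0.0335 and -0.0323 for numbers 1, 3, 4 and 5, and -0.281 to 0.145 for unlike numbers. With the replicate block 3379 genes were lower and 3225 higher, against 3057 and 2889 without it. With the block 3 members were lower and 2 higher, and 8 partner genes were lower and 3 higher, with no member's call changed. Each member had at least 654 reads in every library.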
